A study of Glycine max with 23 samples.

Results

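Small RNA levels in young soybean pods were compared with those in flowers. The comparison rests on 8 of the 23 libraries of Glycine max cultivar Williams 82, chosen by their labels: 3 pod libraries and 5 flower libraries. The pods were taken at weeks 1, 2 and 3 of the beginning of seed development. The flowers were a flower bud at the stage of bud differentiation, a bud before flowering, a flower at florescence, a flower at florescence on a different date, and a flower 5 days after flowering. All plants were of this cultivar, no treatment is named, and how many plants gave each library is not given in the labels. Each stage was sequenced once, so the error of a group is the spread between its stages. Levels are tags per 5000000 sequenced tags (TP5M), as the authors scaled them. The table holds 2839 distinct mature sequences, and 614 of them, with a mean of at least 5 TP5M over the 8 libraries, were tested.

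A plant microRNA (miRNA) is cut from one arm of a folded precursor, the hairpin, and guides a protein complex to messenger RNAs with a nearly complementary site. Names ending in 5p or 3p give the arm, and the product of the opposite arm is usually the rarer. Several old families act on transcription factors that shape flowers and fruits: miR156 on SPL genes, miR160 and miR167 on auxin response factors, miR164 on NAC genes, miR169 on NF-YA genes, miR171 on GRAS genes of the HAM group, and miR319 on TCP genes. The pod is the ovary wall with its young seeds, and it follows the flower once petals and stamens are shed. Loci without a miRNA name carry a number such as M0766, and are given with the family that they resemble where there is one. Such a link says nothing of their targets.

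The sequences behind the largest differences are printed as the authors' table gives them, 5′ to 3′, with bases 2 to 8, the seed, in capitals. Those of the miR1512 family come first, because they gave the largest rise in pods on the log2(TP5M + 5) scale, on which the differences were tested.
miR1512c: tAACTGAAcattcttagagcat
miR1512b: tAACTGGAaattcttaaagcat
M0766-5p: aACTGGAAattcttaaagcatt
M0766-3p: gCTTTAAGaatttcagttatg
miR1512b and M0766-5p share 21 of 21 overlapping bases and are shifted by 1 base, so their seeds differ. miR1512c and miR1512b share 19 of 22 bases.

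Other sequences higher in pods are shown because each leads its family or locus.
miR394b-3p: aGGTGGGCatactgtcaact
M6586-3p: aACCAGGCtctgataccatggt
M5046-3p: gCTCATTCtctatctgtcacc
M1694-3p: tCCCGTCAgtgtcaaagatgtg
M2634-5p: gACCGCATagcgcagtggatt
M1371-5p: tTAAAGTGcttcactttgtgg

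The sequences lower in pods are given next, with miR4392, which missed the threshold.
M4696-3p: gGCAAGTCgtctctggctaca
miR171m: tTGAGCCGcgtcaatatctca
M4370-5p: aGGTATTGgcgtgcctcaatt
miR319a: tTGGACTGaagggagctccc
M4039-5p: aGCTGCTGactcgttggttcg
miR167a: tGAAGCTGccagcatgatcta
M0505-3p: cACGTGCTccccttctccaac
miR4416c: cTGGGTGAgagaaacacgtat
M0854-3p: aCGGGTCGctctcacctggag
miR5761a: tTTTGTGTcgtgaagcttttg
M3552-3p: gCTCTCTAggcttctgtcatcc
miR4392: tCTGCGAAaatgtgatttcgga
M5046-3p, linked to miR156 through its hairpin, has the seed CTCATTC of 3 named miR1507 sequences. The match was read over the seed alone, and shared targets were not tested.

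Sequencing depth of the 8 libraries ran from 4044612 tags in the florescence library of the other date to 5925261 in the week 1 pod, and 1 read was worth 0.844 to 1.24 TP5M. Sequences of the table took 6.78% of the tags in the florescence library of the other date, 10.4% to 11.9% in the other 4 flowers and 8.77% to 9.68% in the pods. That florescence library stood apart from the other flowers. Over the 614 sequences its log2 levels correlated with those of the pods at 0.8603 to 0.8985 (Pearson's r, a description), against 0.7705 to 0.8388 for the other 4 flowers. Another set of libraries was looked at for sequences of its own. 20 sequences with at least 20 reads in all were found in no library outside a set of 6, which holds the 3 pods, the old leaf at the trefoil stage, and the old and new leaf at flower bud differentiation. Of these 20, out of 2839, 9 were in all 3 pods and 16 in at least 1 of the 3 leaf libraries. Some were in a single library, such as miR1511 with 864 reads in the week 2 pod. No like count was made for other sets of libraries. The part of these 20 in the results was not tested beyond the values given beside each one. The table holds no messenger RNA, so the organ labels could not be checked against marker genes.

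In limma, 49 of 614 sequences passed an adjusted p of 0.05 (7.98%), 17 higher in pods (2.77%) and 32 lower (5.21%). A further reading without a test gave 114 sequences whose pod and flower levels did not overlap (18.6%), 41 higher in pods (6.68%) and 73 lower (11.9%). The median difference of all 614 was −0.15 on the log2(TP5M + 5) scale, and with TMM scaling it was 0.05, so small differences turn with the scaling. Without the florescence library of the other date 114 sequences passed, 23 higher and 91 lower, and all 49 were among them. That library was the lowest flower for 26 of the 32 lower sequences, and the highest for 6 of the 17 higher ones. Without the pod of week 2 limma called 6, all among the 49, and without that of week 3 it called 10, of which 8 were among the 49. In whole organs, fewer cells that make a miRNA and less of it per cell cannot be told apart.

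**Figure D1:**
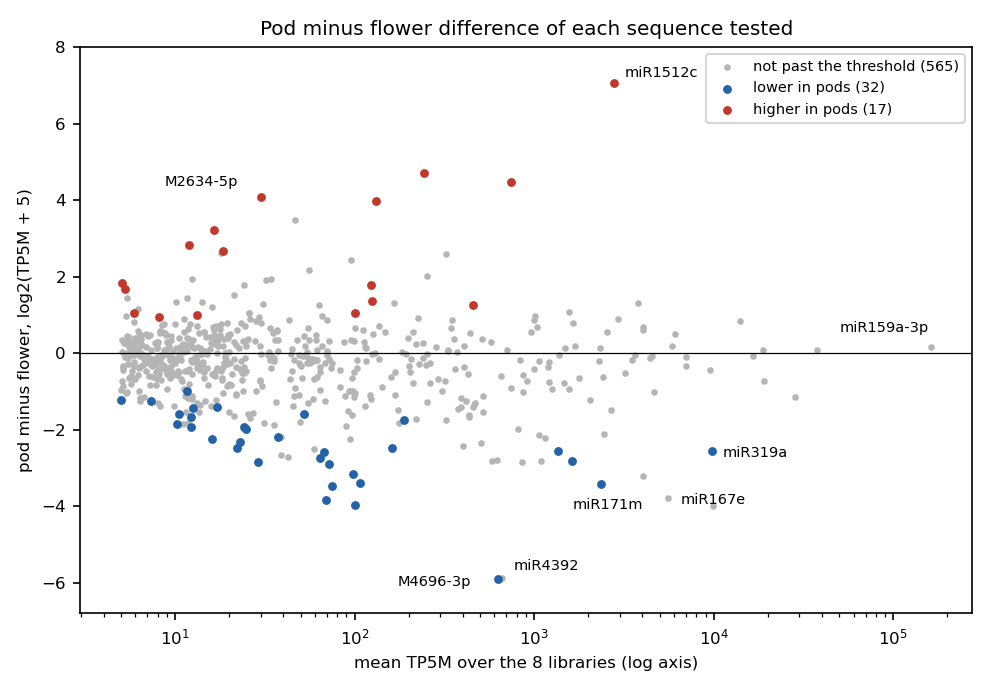
Each of the 614 points is a sequence, with its mean level over the 8 libraries in TP5M (log axis) on the x axis and its pod minus flower difference on the log2(TP5M + 5) scale on the y axis. Red points are the 17 sequences higher in pods and blue points the 32 lower ones; miR1512c lies at 7.05 and M4696-3p at −5.91.

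The miR1512 family, a legume family, rose in pods. miR1512c was at 0.94 TP5M in the flower bud, 7.59 in the bud before flowering, 58.5 at florescence, 1272 at florescence on the other date and 44.2 at 5 days. In pods it was at 3780 TP5M in week 1, 8700 in week 2 and 8530 in week 3. Every pod exceeded every flower, and the florescence library of the other date was nearest to the pods. The means were 277 ± 557 TP5M in flowers (SD, n = 5) and 7003 ± 2793 in pods (SD, n = 3), a 25.3-fold difference and a log2 difference of 7.05 ± 1.51 (SE, limma adjusted p = 0.0277). It reached 1298 TP5M in a seed library and at most 6.18 in the leaf libraries. edgeR on the recovered reads did not call it (adjusted p = 0.125), nor did DESeq2 (adjusted p = 0.0513). In limma the call was also lost without the bud before flowering, the florescence library, the 5 day flower or any 1 of the pods, with adjusted p from 0.0592 to 0.136.

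Both arms of a neighbouring hairpin moved the same way. M0766-3p was at 1.89, 5.69, 15.8, 33.4 and 24.8 TP5M in the flowers, in the order above, and at 134, 1119 and 624 in the pods of weeks 1, 2 and 3. Its pod mean was 38.3-fold higher (log2 4.70 ± 0.77, adjusted p = 0.0111). M0766-5p, on the other arm, was at 0.94 to 33.1 TP5M in flowers and at 111, 497 and 366 in pods (log2 3.96 ± 0.65, adjusted p = 0.0111). For each of these the flower bud was the lowest library and the week 2 pod the highest. Both calls were lost without the pod of week 2 (adjusted p = 0.063) or of week 3 (adjusted p = 0.0661). miR1512b, whose sequence lies on the same hairpin, was at 7.55, 36.1, 85.3, 357 and 108 TP5M in flowers and at 819, 2565 and 1950 in pods (log2 4.48 ± 0.97, adjusted p = 0.0287). In limma its call was lost without any 1 of the same 6 libraries as that of miR1512c, with adjusted p from 0.0544 to 0.141. Unlike miR1512c, it was called by edgeR and by DESeq2 on the recovered reads. edgeR with TMM scaling did not call it. The fifth member, miR1512a, reached at most 51.2 TP5M and did not pass (log2 1.93, adjusted p = 0.0713). In the coordinates of the authors' table the hairpin of miR1512c lies on chromosome 2 at 8609646 to 8609749 and that of M0766 at 8618688 to 8618782, both on the minus strand with 8938 bases between them.

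Among sequences of families shared by most flowering plants, the 3p product miR394b-3p rose in pods. miR394b-3p comes from the hairpin of miR394, a family whose main product acts on an F-box gene of leaf and meristem development. It was at 41.5, 75.9, 52.4, 69.2 and 75.5 TP5M in the flowers and at 199, 198 and 275 in the pods of weeks 1, 2 and 3. Its lowest pod stood well above its highest flower, and the means differed 3.56-fold (62.9 ± 15.3 against 224 ± 43.9 TP5M, log2 1.77 ± 0.30, adjusted p = 0.0111). Without the pod of week 2 or week 3 the adjusted p was 0.0629 or 0.0661. The 5p product of that hairpin, miR394a-5p, was at 395 ± 168 TP5M in flowers and 420 ± 133 in pods. Of 9 tested miR394 sequences 1 was higher and 0 lower, against 17 higher of all 614 (2.77%). The family sum did not pass (log2 −0.007, limma adjusted p = 0.988). M5447-3p, from the same hairpin region, was higher still in 2 of the pods. It stood at 154, 1117 and 748 TP5M in pods against 17.3 to 202 in flowers, overlapped, and did not pass (log2 2.59 ± 0.89, adjusted p = 0.111).

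A few moderate rises were even across the pods. M6586-3p, linked to miR1511, was at 212 to 359 TP5M in flowers and at 616, 819 and 725 in pods (log2 1.26 ± 0.30, adjusted p = 0.0398). M1694-3p, linked to miR4397, was at 58.5 to 91.5 TP5M in flowers and at 134, 153 and 168 in pods (log2 1.06 ± 0.26, adjusted p = 0.0474). The low sequences miR169j-3p, miR4355 and M5799-5p rose to pod means of 21.6, 10.9 and 13.7 TP5M from flower means of 8.36, 2.90 and 4.85. Each of these 5 calls was lost when 1 of at least 6 of the 8 libraries was left out, with adjusted p of up to 0.163.

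From 3p arms of hairpins linked to miR156, 2 sequences rose from almost nothing. M5046-3p was at 0.94, 3.80, 4.87, 1.24 and 0 TP5M in the flowers and at 21.1, 31.9 and 84.0 in the pods of weeks 1, 2 and 3. It was lowest in the 5 day flower and highest in the oldest pod (log2 2.67 ± 0.42, adjusted p = 0.0111). Its sequence lies on the hairpins M5046 and M6359. On M6359 the 5p arm, miR156q, also had the higher mean in pods (27.8 ± 26.5 against 5.86 ± 3.00 TP5M). M6343-3p was listed above 0 in a single flower library, the flower bud at 2.83 TP5M, and stood at 15.2, 16.9 and 7.17 in pods (log2 1.68 ± 0.29, adjusted p = 0.0116). Both calls were lost without the week 2 pod, each with an adjusted p of 0.0629.

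Another 4 sequences were listed at 0 in every flower and above 0 in every pod. They reached the mean of 5 TP5M through the pods alone, and equal flower values add no spread. Their small adjusted p therefore partly reflect the equal zeros. Of all 614 tested sequences, 14 were listed at 0 in every flower. M2634-5p was at 71.7, 81.6 and 87.1 TP5M in the pods of weeks 1, 2 and 3 (limma adjusted p = 2.74e-06). Its pod mean was 21.6-fold above 3 reads of the shallowest library. That fold is a lower bound only where a listed 0 means fewer than 3 reads. M1371-5p was at 27.0, 59.4 and 45.1 TP5M, a mean 11.8-fold above the same level (limma adjusted p = 0.000194). M5084-5p was at 16.9, 17.7 and 6.15 TP5M, a mean 3.66-fold above it (limma adjusted p = 0.0111). These 3 are among the 20 sequences found only within the set of 6 libraries that holds the pods, so their zeros are shared by 17 libraries of all other organs and stages. M2634-5p, for instance, had 702 reads in the old leaf at the trefoil stage and 0 in every flower, seed, stem and cotyledon library. With a term for these 6 libraries in a fit over all 23, the difference of M2634-5p was 0.32 (adjusted p = 0.899) and that of M1371-5p was −0.59 (adjusted p = 0.500). The 6 were picked by where such sequences were found and hold all 3 pods. This fit therefore cannot tell a difference of pods from one of the set. The fourth, M5974-3p, linked to miR5041, was at 27.9, 47.9 and 20.5 TP5M (limma adjusted p = 0.0004). Its pod mean was 8.65-fold above 3 reads of the shallowest library, and it reached 6.01 TP5M in one leaf library.

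**Figure D2:**
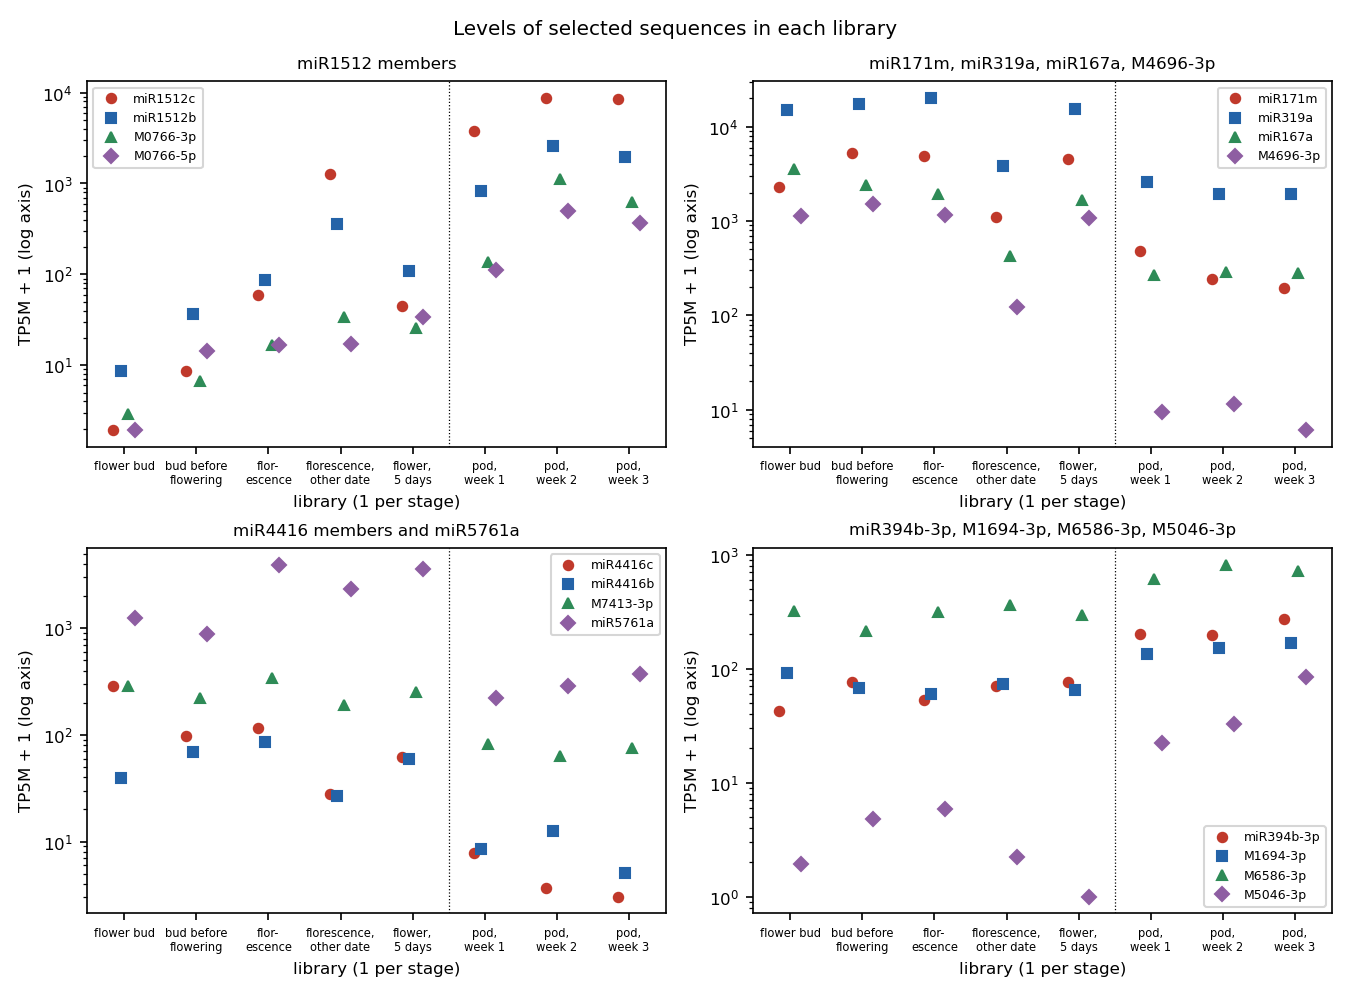
Each panel gives the level of 4 sequences in TP5M plus 1 (log axis) in the 5 flower libraries, left of the dotted line, and the 3 pod libraries, right of it. In the upper left panel the miR1512 sequences are higher in each pod than in any flower, and in the upper right panel the florescence library of the other date is the lowest flower for all 4 sequences.

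On the log2(TP5M + 5) scale the largest fall among the called sequences was that of M4696-3p; by the ratio of the means M2450-5p and M3552-3p were further apart. M4696-3p bears the older name miR169v in the table, and its sequence lies on 2 miR169 hairpins, M4696 and M7060. It was at 1127 TP5M in the flower bud, 1503 in the bud before flowering, 1160 at florescence, 122 at florescence on the other date and 1085 at 5 days. In the pods of weeks 1, 2 and 3 it was at 8.44, 10.6 and 5.12 TP5M. The groups did not overlap, and the florescence library of the other date was the lowest flower. The means were 999 ± 518 and 8.07 ± 2.78 TP5M, a 124-fold difference (log2 −5.91 ± 0.77, adjusted p = 0.00455). This call held under each of the 19 alternatives run, with adjusted p below 0.05 without any 1 library. It was listed at 0 in every seed library. Of the named miR169 sequences from the 5p arm, miR169b and miR169u also fell. miR169b was at 137, 110, 122, 55.6 and 95.7 TP5M in flowers and at 54.9, 2.66 and 1.02 in pods, so that the week 1 pod lay just below the lowest flower (log2 −2.90 ± 0.71, adjusted p = 0.0461). miR169a, the most abundant, was lower in the pod mean but overlapped (1651 ± 1076 against 309 ± 180 TP5M, adjusted p = 0.0948). Among the 12 tested sequences with the seed AGCCAAG, 0 were higher and 2 lower, against 32 lower of all 614 (5.21%). Their differences ran from −2.90 to 0.87. The calls of miR169b and miR169u were lost when 1 of at least 6 libraries was left out (adjusted p up to 0.184).

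The miR171 family fell in sum, and 5 of its sequences fell one by one. miR171m was at 2303, 5236, 4828, 1105 and 4529 TP5M in the flowers and at 486, 245 and 194 in the pods of weeks 1, 2 and 3. It was highest in the bud before flowering and lowest in the oldest pod. The means were 3600 ± 1799 and 308 ± 156 TP5M, an 11.7-fold difference (log2 −3.43 ± 0.58, adjusted p = 0.0111). The opposite arm of its hairpin, M4370-5p, was at 34.6 to 265 TP5M in flowers and at 7.59, 11.5 and 6.15 in pods (log2 −3.41 ± 0.61, adjusted p = 0.0123). That hairpin lies on chromosome 12 at 8398817 to 8398949, plus strand. M1891-5p (log2 −2.74), M2450-5p (log2 −2.85) and miR171i-3p (log2 −1.58) fell too. This makes 5 of the 18 tested sequences lower and 0 higher, against 32 lower of all 614 (5.21%). Over the 6 sequences with the seed TGAGCCG the differences ran from −3.43 to −0.15. Summed over the family, the level was 10781 ± 4400 TP5M in flowers and 2464 ± 1160 in pods (log2 −2.13 ± 0.51, adjusted p = 0.0391). The call of miR171m was lost without the pod of week 2 (adjusted p = 0.063) or of week 3 (adjusted p = 0.0661), and that of the family without any 1 library other than the flower bud and the florescence of the other date (adjusted p from 0.0667 to 0.133).

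miR319a, of the family that acts on TCP genes of organ growth, was among the most abundant sequences that fell. It was at 15062, 17347, 20020, 3853 and 15182 TP5M in the flowers and at 2589, 1947 and 1922 in the pods. The pods lay close together, and the florescence library of the other date came nearest to them. The means were 14293 ± 6174 and 2153 ± 378 TP5M, a 6.64-fold difference (log2 −2.55 ± 0.52, adjusted p = 0.0221). M4039-5p, from a hairpin linked to miR319, fell from 151 ± 97.5 to 10.3 ± 5.65 TP5M (log2 −3.17 ± 0.58, adjusted p = 0.0132). Among the tested sequences its seed GCTGCTG is shared with miR4414 and M7597-5p alone, and it differs from that of miR319a. M4051-3p, which shares the seed TGGACTG with miR319a, was at 558 to 9372 TP5M in flowers and at 740, 451 and 332 in pods, and missed the threshold (log2 −3.20, adjusted p = 0.0630). miR319g, with the same seed, was at 175 to 359 TP5M in flowers and at 221 to 251 in pods, and did not pass (log2 −0.25, adjusted p = 0.663). The call of miR319a held without the florescence library of the other date and was lost without any 1 other library (adjusted p from 0.051 to 0.113). That of M4039-5p was lost without the pod of week 2 (adjusted p = 0.0742) or week 3 (adjusted p = 0.0913).

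Auxin response factors are acted on by miR160 and miR167. Of miR167 2 of 8 tested sequences fell, and of miR160 1 of 4, a 3p product, against 32 of all 614 (5.21%). miR167a was at 3570, 2383, 1937, 430 and 1685 TP5M in the flowers and at 265, 289 and 279 in the pods. It was highest in the flower bud, and its 3 pod levels were almost equal. The means were 2001 ± 1138 and 278 ± 12.1 TP5M (log2 −2.55 ± 0.62, adjusted p = 0.046). The more abundant miR167e and M4031-5p did not pass, and in the week 1 pod they stood at flower levels. miR167e was at 10496, 8415, 3858, 8940 and 3126 TP5M in flowers and at 9603 in the pod of week 1, 125 in week 2 and 70.7 in week 3 (log2 −3.78 ± 1.41, adjusted p = 0.138). M4031-5p, with the same seed GAAGCTG, had a like pattern, at 5657 to 17573 TP5M in flowers and at 18263, 184 and 88.1 in pods (adjusted p = 0.143). In seeds these 2 reached 34908 and 65351 TP5M. M0732-5p of miR167 (log2 −2.25), M3835-3p of miR160 (log2 −1.43) and M0715-3p of miR390 (log2 −1.92), a family that starts the production of small RNAs against auxin response factors, fell at low levels. M3835-3p has the seed of miR160a-3p. As sums in limma, miR160 (log2 −0.29, adjusted p = 0.743) and miR390 (log2 −0.89, adjusted p = 0.310) did not pass. The call of miR167a was lost without any 1 library other than the florescence of the other date (adjusted p from 0.0773 to 0.163), and those of the 3 low ones without 1 of at least 4 libraries.

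M0505-3p, which bears the older name miR164a and is the 3p product of a miR164 hairpin, was at 261, 313, 256, 48.2 and 307 TP5M in the flowers and at 42.2, 43.5 and 16.4 in the pods. The florescence library of the other date lay just above the pods, and the other flowers far above them (log2 −2.49 ± 0.64, adjusted p = 0.048). M3552-3p, a 3p product linked to miR156, fell from 262, 114, 104, 12.4 and 57.1 TP5M to 2.53, 0 and 0 (log2 −3.84 ± 0.75, adjusted p = 0.019). Hairpins linked to miR156 therefore gave 2 sequences that rose and 2 that fell, the other being miR156r (log2 −1.42). miR156c, the most abundant 5p member, was at 151 to 2392 TP5M in flowers and at 111, 93.1 and 72.7 in pods, and missed the threshold (log2 −2.79 ± 0.76, adjusted p = 0.0608). Without the florescence library of the other date the adjusted p of M0505-3p was 0.00115, and without any 1 other library it was 0.0958 to 0.202. The call of M3552-3p was lost without any pod, the bud before flowering or the florescence library (adjusted p from 0.0504 to 0.107).

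**Figure D3:**
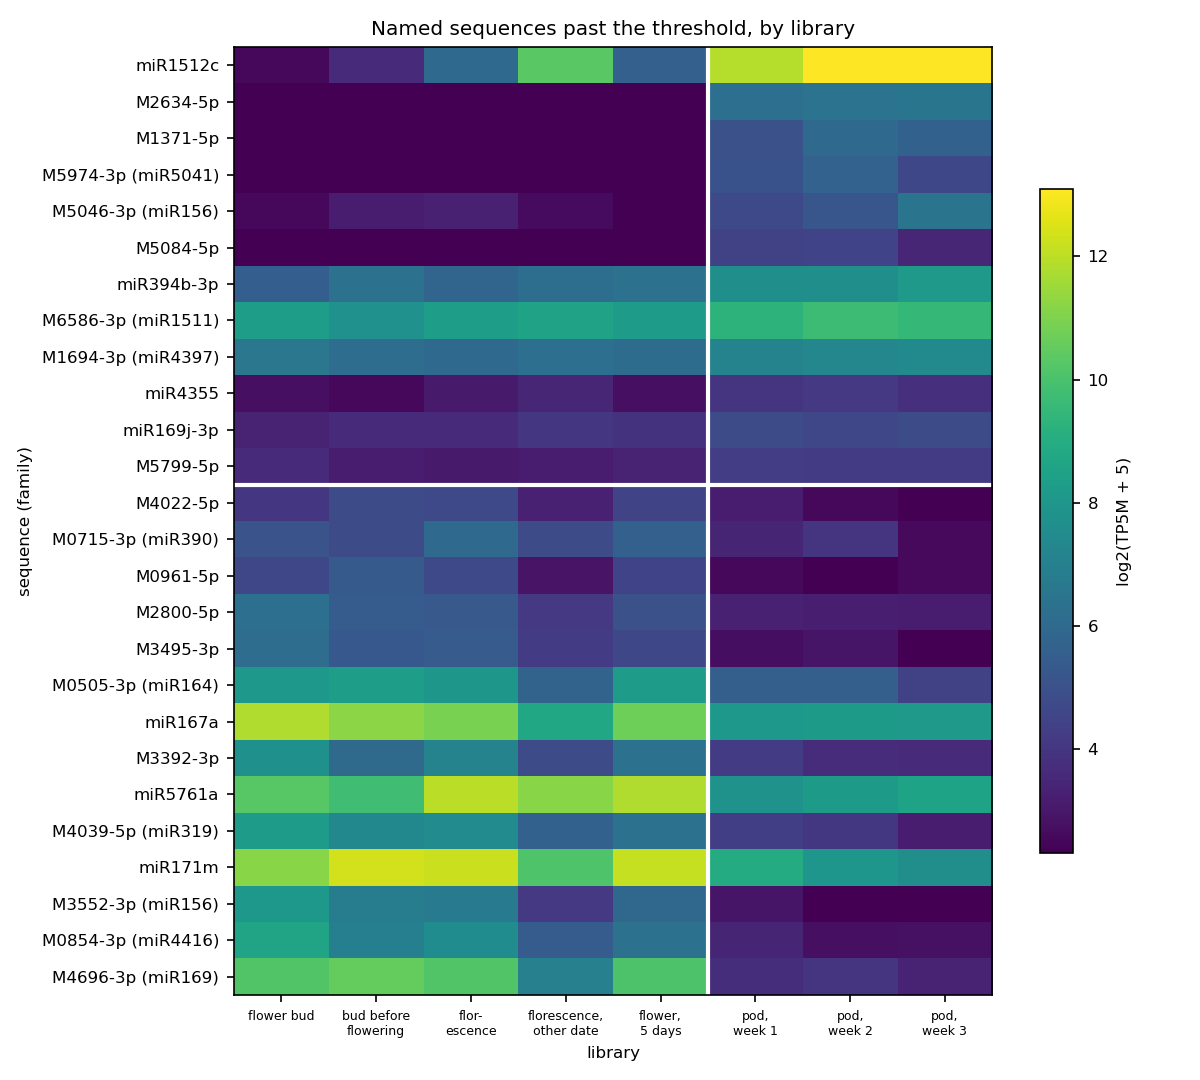
Colour gives the log2(TP5M + 5) level of 26 called sequences chosen by rule (rows, family in brackets) in the 8 libraries (columns). Above the white line are 12 sequences higher in pods, and below it 14 lower ones, in most of which the florescence library of the other date is closer to the pods in colour than the other flowers are.

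Families known mainly from soybean and its relatives fell as well as rose. miR4416 gave the most even fall: 5 of its 6 tested sequences were lower and 0 higher, against 32 lower of all 614 (5.21%). The members are not all separate loci, as M1334-5p and M7413-3p lie on 1 hairpin. The summed level was 634 ± 272 TP5M in flowers and 98.9 ± 12.1 in pods (log2 −2.52 ± 0.38, limma adjusted p = 0.0119). miR4416c was at 289, 96.8, 115, 27.2 and 60.7 TP5M in flowers and at 6.75, 2.66 and 2.05 in pods (log2 −3.46 ± 0.62, adjusted p = 0.0123). M0854-3p, on the other arm of that hairpin, was at 38.3 to 381 TP5M in flowers and at 5.91, 1.77 and 2.05 in pods (log2 −3.96 ± 0.64, adjusted p = 0.0111). M1334-5p varied least among flowers, at 27.4, 40.8, 35.3, 32.1 and 40.5 TP5M against 3.38, 3.55 and 2.05 in pods, and its call held without any 1 library (log2 −2.32 ± 0.21, adjusted p = 0.000377). Calls of miR4416c, M0854-3p and the miR4416 family were lost without the pod of week 2 (adjusted p = 0.0827, 0.063 and 0.0958) or of week 3 (adjusted p = 0.0863, 0.0661 and 0.0734), and that of miR4416c also without that of week 1 (adjusted p = 0.0508).

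miR5761a was at 1238 and 876 TP5M in the buds, 3963 and 2338 at florescence on the first and the other date, and 3621 at 5 days. In pods it was at 222, 290 and 373 TP5M (log2 −2.81 ± 0.54, adjusted p = 0.0181). Here the florescence library of the other date was not the lowest flower. The call was lost without any 1 pod (adjusted p from 0.0661 to 0.0827) and in the fit over all 23 libraries (adjusted p = 0.577), where one leaf library reached 58752 TP5M. miR4392 ranged widely within flowers, at 3542, 1339, 207, 7.42 and 170 TP5M, and was listed at 0 in each pod. It missed the threshold (log2 −5.88 ± 1.56, limma adjusted p = 0.0555), although the flower mean was 284-fold above 3 reads of the shallowest library. Of 8 sequences without a family that fell, the 5 named by rule had pod means of 0.620 to 9.55 TP5M against flower means of 15.8 to 102.

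Summed by family, 7 of 104 passed (6.73%). The miR4416, miR5761 and miR171 families were among the 4 lower in pods, and miR1512 (log2 5.91 ± 1.26, adjusted p = 0.0317), miR4355 (log2 1.04, adjusted p = 0.0391) and miR4397 (log2 0.91, adjusted p = 0.0391) were higher. With TMM scaling 19 passed, 12 higher and 7 lower, against 3 higher and 4 lower without it. miR319 (log2 −1.89, adjusted p = 0.0586), miR167 (log2 −3.14, adjusted p = 0.109), miR156 (log2 −1.36, adjusted p = 0.179) and miR169 (log2 −1.24, adjusted p = 0.109) did not pass as sums. Without the pod of week 2 or week 3, limma called 0 families, with 21 and 20 at an unadjusted p under 0.05. Neither edgeR nor DESeq2 was run on family sums. The calls of the 6 families other than miR4416 were each lost without at least 4 single libraries.

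The most abundant sequences did not pass. miR159a-3p, which acts on GAMYB-like genes, was at 156123 ± 16855 TP5M in flowers and 174556 ± 6096 in pods (log2 0.17 ± 0.11, adjusted p = 0.375). miR166a-3p, which acts on HD-ZIP III genes, was at 36242 ± 6095 and 39855 ± 14630 TP5M (adjusted p = 0.845). miR168a, which acts on the AGO1 gene of the small RNA machinery, was at 36660 ± 20453 TP5M in flowers and 14489 ± 1660 in pods (log2 −1.14 ± 0.46, adjusted p = 0.161). miR2118a-5p and miR1507a had adjusted p of 0.388 and 0.864. miR172, which represses AP2-like genes of flower development, had 8 tested sequences, with adjusted p from 0.0631 to 0.757.

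The 10 lists of families, grouped by the known targets of their main products, were read beside all 614 sequences, which had 17 higher, 32 lower and a median of −0.15. The auxin list had 27 tested sequences, 0 higher and 4 lower, with a median of −1.02. In the meristem and organ shape list (miR164, miR165, miR166, miR171, miR319, miR394 and miR396) 1 of 78 was higher and 8 lower, with a median of −0.68. The nutrient list, which holds miR169, miR395 and miR399, had 1 higher and 3 lower of 53 (median −0.43), and the phase change list of miR156 and miR172 had 2 higher and 2 lower of 22 (median −0.43). The copper list had 1 higher and 0 lower of 18 (median −0.55). Other legume families had 5 higher and 0 lower of 23, 4 of them miR1512, and young soybean families 3 higher and 7 lower of 81. The medians of these last 2 lists, −0.03 and −0.07, turned to 0.22 and 0.15 with TMM scaling.

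The MYB, small RNA machinery and defence regulator lists had 0 calls in limma. Over all 614 sequences tested, 166 (27.0%) had an unadjusted p under 0.05. On the recovered reads edgeR called 16 of the 614 higher in pods (2.61%) and 34 lower (5.54%), and DESeq2 called 52 of 605 higher (8.60%) and 94 lower (15.5%). Of the MYB list 2 of 9 sequences had an unadjusted p under 0.05 (median −1.18), edgeR called 0, and DESeq2 called 1 higher and 5 lower. Of the small RNA machinery list (miR162, miR168 and miR403) 6 of 10 had an unadjusted p under 0.05 (median −1.05), edgeR called 0, and DESeq2 called 6 lower. Of the defence regulator list (miR482, miR1507, miR1510, miR2109 and miR2118) 5 of 30 had an unadjusted p under 0.05 (median 0.12), edgeR called 0, and DESeq2 called 5 higher and 1 lower. With TMM scaling limma called 1 MYB sequence and 2 defence regulators higher, and 0 of the machinery list, against 26 of all 614 higher (4.23%) and 38 lower (6.19%).

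**Figure D4:**
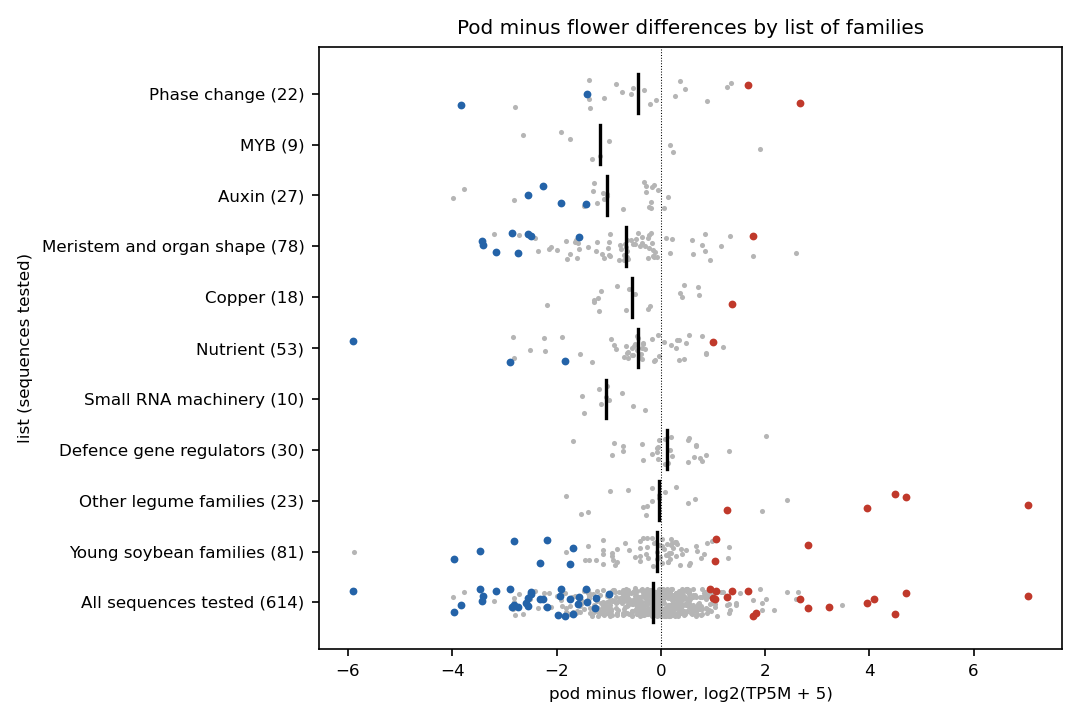
Each point is a tested sequence, placed by its pod minus flower difference on the log2(TP5M + 5) scale, in the row of its list (number tested in brackets); black bars are medians. Red points passed as higher and blue points as lower in pods, and the medians run from −1.18 for MYB to 0.12 for defence gene regulators.

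The balance between the arms of a hairpin, log2((5p + 5)/(3p + 5)) in TP5M, does not depend on how libraries are scaled except through the added 5. It differed between pods and flowers in 10 of 113 hairpins (8.85%). An arm sequence was shared with another tested hairpin in 50 of the 113 and in 7 of the 10, and a shared arm cannot be assigned to 1 of them. In the M4696 hairpin of miR169 the balance was −4.88 ± 0.90 in flowers and 0.67 ± 0.77 in pods (difference 5.55 ± 0.58, adjusted p = 0.00189). Its 5p arm was at 24.9 ± 14.8 and 17.0 ± 10.4 TP5M, against 999 ± 518 and 8.07 ± 2.78 for its 3p arm. The same 3p sequence lies on the hairpin M7060, whose balance was not called (difference 3.10 ± 2.16, adjusted p = 0.481). There the 5p arm was at 4206, 2409, 0, 295 and 1595 TP5M in the flowers, in the order above, and at 105, 63.8 and 35.9 in the pods of weeks 1, 2 and 3, so both arms had lower means in pods. The 5p sequence of M4696 also lies on M3362 and M5502, which were not called either (1.53, adjusted p = 0.241, and −0.05, adjusted p = 0.957). In M5974, linked to miR5041, the 5p arm was at 21.8 ± 5.96 and 24.5 ± 7.85 TP5M, and the 3p arm was listed at 0 in every flower (difference −2.69 ± 0.32, adjusted p = 0.00222). These 2 calls held under each of the 11 alternatives run for arms.

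Of the 10, 5 more are given here, and they moved both ways. The balance moved toward 3p in M5046 of miR156 (−2.99 ± 0.52, adjusted p = 0.0199), M0278 of miR398 (−1.69 ± 0.34, adjusted p = 0.0239) and M1334 of miR4416 (−2.26 ± 0.54, adjusted p = 0.0457). It moved toward 5p in miR4412 (2.13 ± 0.46, adjusted p = 0.0304) and M0505 of miR164 (1.68 ± 0.41, adjusted p = 0.0457). Of these 5, miR4412 shares neither arm with another tested hairpin. Its abundant 5p arm went from 2197 ± 353 to 4130 ± 1162 TP5M and the 3p arm from 88.0 ± 44.0 to 35.6 ± 24.7. Each of these 5 calls was lost without at least 3 single libraries, with adjusted p of up to 0.169. That of M1334 was lost without any 1 of the 8 libraries and with a pseudocount of 1. Its 5p arm went from 35.2 ± 5.70 to 2.99 ± 0.82 TP5M, and its 3p arm from 8.46 ± 6.56 to 8.51 ± 9.49.

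**Figure D5:**
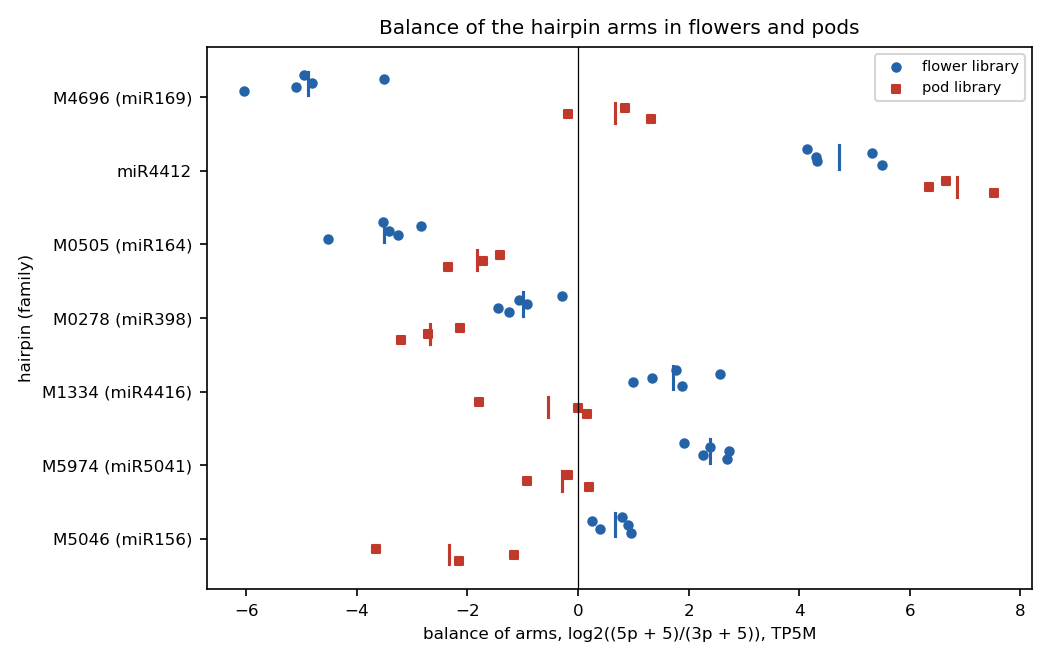
Each point is a library, blue circles for the 5 flowers and red squares for the 3 pods, placed by the balance of 5p over 3p on a log2 scale with 5 TP5M added; short bars are group means. The M4696 hairpin shows the widest gap, with flowers at −6.04 to −3.51 and pods at −0.17 to 1.33.

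Sequences of 20 nucleotides were compared by their share of the summed signal. The share was 3.23%, 3.35%, 4.04%, 1.72% and 3.30% in the flowers and 1.20%, 1.07% and 0.927% in the pods of weeks 1, 2 and 3. Every pod lay below every flower, and the exact two-sided permutation test gave p = 0.0357, the smallest that 56 splits allow. Adjusted over 7 measures p was 0.167, so the difference did not pass. miR319a, 20 nucleotides long, made up 84.7% of that class in flowers and 43.3% in pods. The share of 21 nucleotide sequences was 77.8 ± 1.78% and 81.0 ± 2.51% (exact permutation p = 0.0714, adjusted 0.167), and the share of miR159a-3p was 30.7 ± 3.92% and 37.6 ± 0.767% (exact permutation p = 0.0714, adjusted 0.167). Of the 17 sequences higher in pods 5 began with U and 8 were 22 nucleotides long; of the 32 lower ones 16 began with U and 8 were 22 nucleotides long. Among all 614, 52.1% began with U and 39.3% were 22 nucleotides long.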

How the data were processed

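Small RNA libraries were made from total RNA after size selection on gels and sequenced on an Illumina instrument, per the labels' protocols. The authors deposited 1 table whose values are a normalised signal, tags per 5000000 tags (TP5M), per the file headers. The submitters' processing notes list BWA alone. Its settings, the build of the genome and how reads were counted are not given in the sources used; coordinates are those of the table. Copies of a miRNA gene with one mature sequence cannot be told apart, so the 3933 entries were merged by their maximum into 2839 sequences. Columns were matched by the number in the sample title; a number in brackets in the same titles would give another match.

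Families came from the name (413 sequences), else from 18 shared bases in a row (151), an overlapping hairpin (153) or an older name (30); the last was added to the planned rule. Values of up to 200 reads came out as whole reads within 0.1 in each of the 8 libraries (100%), from which reads and depth were recovered. The limit for 0 is 3 reads, at most 3.71 TP5M here, and covers counting error only. Some listed zeros stand beside high values of the same sequence. M7060-5p, for instance, was at 0 at florescence and at 2409 TP5M in the bud before flowering. A fold over this limit is therefore not a firm lower bound. Differences are pod minus flower on log2(TP5M + 5), which understates low sequences; folds compare mean TP5M.

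The main test was limma 3.58.1 (eBayes with trend, Benjamini-Hochberg over all features tested, 0.05) in R 4.3.3. edgeR 4.0.16 and DESeq2 1.42.0 on recovered reads were alternatives, since the values are scaled. Scripts were tested on simulated data. The libraries of an organ are stages, so p-values measure the spread between stages. Shares were compared by exact permutation tests. Sequences named are the 15 largest calls in each direction (1 per family or locus), the 5 most abundant, the 2 most abundant of each list, called families, 8 hairpins and the 3 largest differences each way that missed the threshold; others are called members of a family already named, or were chosen after their values were seen. A few sequences that the rule names are not reported here. Members, lists and tests were chosen with earlier results of these data known.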

Additional observations from a re-analysis of the deposited data

Results flagged for a closer look

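In 5 of the 73 sets of 5 flower values looked at, 1 library lay far from the other 4, and each time it was the florescence library of the other date; chance flags about 1 set in 20. It was the lowest flower for M4696-3p at 122 TP5M, for M0505-3p at 48.2 TP5M, for miR159a-3p at 126478 TP5M and for miR396b-5p at 3056 TP5M. It was the highest for the share of the summed signal in 24 nucleotide sequences, at 0.187%. The difference of M4696-3p, with that library left out, kept its call.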

How the results depend on the processing

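No paired analysis was possible because the labels give the libraries no replicate numbers shared between pods and flowers. Of the 49 calls, 3 held under all 19 alternatives (M4696-3p, M5084-5p and M5974-3p) and 6 held without any 1 library. M5084-5p, M5974-3p, M2634-5p and M1371-5p are among the 6 and were listed at 0 in every flower. Leaving out a flower therefore could not change their flower mean, and is no check of these calls. The count of called sequences was 25 with all 23 libraries in the fit, 146 with DESeq2 (9 sequences without an adjusted p), 16 with the open flower and later stages as the flower group, and 11 with a term for the 3 pods and 3 leaf libraries, an alternative chosen after seeing the data. It was 35 to 64 with other pseudocounts, no filter, summed entries, TMM or edgeR, and 6 to 114 without 1 library. Called families were 19 with TMM, 3 with all 23 libraries, 1 with the added term and 0 to 25 without 1 library. Called hairpins were 4 with all 23 libraries and 2 to 9 without 1 library. Under the added term M1371-5p turned to −0.59 (adjusted p = 0.500) and the miR4397 family to −0.22 (adjusted p = 0.840); the cause was not tested. With a pseudocount of 20 the split was 17 higher and 18 lower. No measure of library composition passed under any alternative, and 2 measures, both uncalled, changed direction. Without 1 library none could pass. The smallest exact permutation p possible is then 0.0571 without a flower and 0.0952 without a pod. The difference in the 22 nt share was −1.04 percentage points, 1.17 without the most abundant sequence and 0.145 without the week 3 pod. That in the number of sequences with 3 reads or more was 26.9, −26.9 at equal depth, −5.80 without the week 2 pod and −1.08 without the florescence library of the other date. Fewer libraries give fewer degrees of freedom, and sequences near 3 reads per library lie at the limit of detection.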
